A study of Mus musculus with 4 samples.

Results

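Fc gamma receptors bind the constant part of IgG and couple antibody-coated particles to uptake, oxidant release and cytokine production. In the mouse the activating receptors encoded by Fcgr1, Fcgr3 and Fcgr4 signal through a shared chain, FcRgamma, encoded by Fcer1g, whereas the receptor encoded by Fcgr2b carries an inhibitory motif and sets the threshold for activation. The neonatal receptor FcRn, encoded by Fcgrt, sits mainly in endosomes, where it binds IgG at acid pH and returns it to the cell surface. In blood, Ly6Chi monocytes are the classical, inflammatory subset, and Ly6Clo monocytes patrol the vessel wall and are known for high surface levels of FcgammaRIV, the product of Fcgr4.

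These 6 genes (Fcgr1, Fcgr2b, Fcgr3, Fcgr4, Fcer1g and Fcgrt) were taken by symbol from the deposited expression table, which lists 23995 symbols, and all 6 were found in all 4 libraries. The study asked how RBP-J, the DNA-binding partner of Notch receptors, shapes blood monocytes. RNA was sequenced from Ly6Clo and Ly6Chi monocytes sorted from the blood of control and RBP-J-deficient mice, with 1 library in each of the 4 groups. Control libraries are titled WT, but their genotype label is Lyz2-Cre, and the study's methods give Rbpj+/+ Lyz2 cre/cre. Deficient libraries carry the label RBP-Jfl/fl Lyz2-Cre, given in the methods as Rbpj fl/fl Lyz2 cre/cre. All 4 groups therefore carry Lyz2-Cre, in which Cre is driven from the Lyz2 locus and acts in monocytes, macrophages and neutrophils, and all were untreated as far as the labels state. The methods give gender- and age-matched mice of 7 to 12 weeks for the study. The labels give no age or sex for a library, and the number of mice behind each library is not given in the sources used here. With 1 library per group there was no replicate check and no test, so every difference below is a difference between 2 libraries. In such bulk libraries, fewer cells of a type and less RNA per cell cannot be told apart.

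Values are FPKM, fragments scaled to transcript length and to the number of mapped fragments, and the read depth behind them is unknown. The libraries summed to between 711532 and 885649 FPKM over all genes, and between 8985 and 9394 genes reached 1 FPKM. Actb was listed at 0 in both deficient libraries, where its estimate had failed, and at 27260 FPKM and 22795 FPKM in the control Ly6Clo and Ly6Chi libraries. Rescaling each library to the same sum (TPM) moved the log2 ratios of the 6 genes, deficient over control, by a median of -0.30 in Ly6Clo and -0.10 in Ly6Chi monocytes, and of Ly6Clo over Ly6Chi by -0.01 in control and -0.21 in deficient mice. Rbpj was at 8.30 FPKM in control and 2.43 FPKM in deficient Ly6Clo monocytes, and at 14.4 FPKM and 2.85 FPKM in the Ly6Chi libraries. The 5 Ly6Chi markers summed to 3482 FPKM in control Ly6Chi and 74.4 FPKM in control Ly6Clo monocytes, and the 8 Ly6Clo markers to 714.3 FPKM and 3474 FPKM, so the labelled subsets carried their own markers. In deficient Ly6Clo monocytes the Ly6Chi marker sum was 571.3 FPKM and the Ly6Clo marker sum 1906 FPKM. In deficient Ly6Chi monocytes these sums were 2674 FPKM and 1032 FPKM. By gene, deficient over control in Ly6Clo monocytes was a log2 ratio of 2.98 for Ccr2, 2.86 for F13a1 and 2.73 for Ly6c2 of the first list, and -3.22 for Nr4a1, -3.08 for Itgax, -2.55 for Ace and -1.11 for Cd9 of the second. By flow cytometry and qPCR the study found similar Nr4a1 in Ly6Clo monocytes of both genotypes, unlike the value here. The rest of the second list did not reach 2-fold in Ly6Clo monocytes, with Treml4 at -0.99, Spn at -0.45, Emr4 at -0.27 and Pparg higher at 0.84. Of the second list, Pparg (1.57) and Treml4 (1.03) were at least 2-fold higher in deficient Ly6Chi monocytes. Of 5 general monocyte markers, Csf1r (-1.36) and Lyz2 (1.35) were 2-fold apart in Ly6Clo monocytes and none in Ly6Chi monocytes. Both deficient libraries thus had marker sums between those of the control subsets, but single genes did not all lie between. In deficient Ly6Clo monocytes Nr4a1 (65.6 FPKM), Itgax (3.10 FPKM) and Ace (17.7 FPKM) were below both control subsets. In control Ly6Clo and Ly6Chi monocytes these were at 618.2 and 213.9, 33.7 and 3.36, and 108.7 and 26.4 FPKM. Pparg (372.8 FPKM) was above both (208.4 and 17.6 FPKM), whereas Ccr2, Ly6c2, F13a1 and Cd9 lay between. The part of these marker differences in the values below was not tested.

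Fcgr2b, Fcgr3, Fcgr4 and Fcer1g lie together on chromosome 1 of GRCm38 (GENCODE M21), within 275.7 kb. From left to right these are Fcgr2b (chr1:170958617-170976547, minus strand), Fcgr4 (chr1:171018920-171029761, plus strand), Fcgr3 (chr1:171051174-171064935, minus strand) and Fcer1g (chr1:171229572-171234365, minus strand). Fcgr1 lies at chr3:96282909-96293969 and Fcgrt at chr7:45092990-45103851, both on the minus strand. Fcgr2b and Fcgr3 are close relatives, and their mature transcripts share an identical run of 129 bases, all coding, across the join of exons 3 and 4 of both genes. In the genome the run covers chr1:170966674-170968081 in Fcgr2b and chr1:171054167-171057792 in Fcgr3, each including an intron. It is shown because reads that fall wholly inside it could be assigned to either gene, and it reads as follows, 5′ to 3′.
Fcgr2b and Fcgr3: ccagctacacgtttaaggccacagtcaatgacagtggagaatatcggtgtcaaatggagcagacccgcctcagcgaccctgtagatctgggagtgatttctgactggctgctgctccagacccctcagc
Of all 50-base windows in the annotated Fcgr3 transcripts, 10.2% (166 of 1627) also occurred in Fcgr2b, and these made up 4.48% of the Fcgr2b windows. Counting any other gene, 6.72% of the Fcgr2b windows (249 of 3708) were shared. No 50-base window of Fcgr1, Fcgr4, Fcer1g or Fcgrt was found in another gene. The levels of Fcgr2b and Fcgr3 are therefore less certain than those of the other 4 genes. The Fcgr2b locus also overlaps an antisense gene, Gm38204, over 3175 bases, and the Fcgrt locus one named Gm45669 over 5331 bases. Whether reads were counted by strand is not given in the sources used here.

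RefSeq promoter windows (GRCm38.p6, 250 bases before to 50 after the start site) were found for all 6 genes and searched on both strands for TGGGAA, the core of the sequence bound by RBP-J, GAGGAA, a purine-rich sequence bound by the myeloid factor PU.1, and TTCNNNGAA, the interferon-responsive STAT site. Among all 32851 promoter windows, these letters occurred in 25.6%, 28.3% and 8.30%. Windows of 3 genes, Fcgr1, Fcgr3 and Fcgr4, held a match and are shown for that reason, each on the strand of its gene with matches in capitals.
Fcgr1, chr3:96293920-96294219, minus strand: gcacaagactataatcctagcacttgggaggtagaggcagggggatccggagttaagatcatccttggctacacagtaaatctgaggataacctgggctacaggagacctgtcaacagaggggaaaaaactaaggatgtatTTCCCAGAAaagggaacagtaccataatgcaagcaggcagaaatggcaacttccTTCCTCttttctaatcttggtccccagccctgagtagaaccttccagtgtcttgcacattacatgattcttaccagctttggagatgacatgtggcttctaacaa
Fcgr3, chr1:171059354-171059653, minus strand: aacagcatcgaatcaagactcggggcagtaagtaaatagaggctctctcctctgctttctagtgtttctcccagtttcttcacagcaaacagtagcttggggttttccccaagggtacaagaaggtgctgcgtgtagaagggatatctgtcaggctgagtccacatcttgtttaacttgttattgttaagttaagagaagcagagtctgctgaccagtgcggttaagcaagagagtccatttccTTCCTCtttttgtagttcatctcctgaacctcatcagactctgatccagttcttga
Fcgr4, chr1:171018676-171018975, plus strand: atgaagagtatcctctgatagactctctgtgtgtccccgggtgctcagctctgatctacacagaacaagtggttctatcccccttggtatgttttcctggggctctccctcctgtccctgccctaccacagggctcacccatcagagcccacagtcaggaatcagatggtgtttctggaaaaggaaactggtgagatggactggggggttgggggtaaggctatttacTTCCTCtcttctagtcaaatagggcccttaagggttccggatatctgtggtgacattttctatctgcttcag
All 3 held the PU.1 letters on the opposite strand (TTCCTC as printed), starting at position -55 from the start site in Fcgr1, -6 in Fcgr3 and -22 in Fcgr4. The Fcgr1 window also held a STAT match, TTCCCAGAA at -109, whose first bases are the RBP-J core read on the opposite strand, so these 2 matches overlap. The windows of Fcgr2b, Fcer1g and Fcgrt held none of the 3 motifs. A second, nearby RefSeq start site of Fcgr3 gave a window with the same match. These matches describe letters only.

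Fcgr4 encodes FcgammaRIV (CD16-2), an activating receptor of medium affinity. Its level was 857.1 FPKM in control Ly6Clo, 807.5 FPKM in deficient Ly6Clo, 73.6 FPKM in control Ly6Chi and 176.1 FPKM in deficient Ly6Chi monocytes. Both Ly6Clo libraries were far above both Ly6Chi libraries, the Ly6Clo libraries were close to each other, and the deficient Ly6Chi library was above its control. As a log2 ratio of (FPKM + 1), the scale of every ratio below, the level in Ly6Clo over Ly6Chi monocytes was 3.52 in control and 2.19 in deficient mice. Deficient over control was -0.09 in Ly6Clo and 1.25 in Ly6Chi monocytes. The last value is a fold of 2.37 on the same scale, higher than in 98.8% of the 9771 genes tested there. It lay between 1.10 and 1.26 under 9 other ways of processing.

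Fcgr1 encodes CD64, the high-affinity IgG receptor, and is known as an interferon-induced gene. It stood at 15.6 FPKM in control Ly6Clo, 27.1 FPKM in deficient Ly6Clo, 61.7 FPKM in control Ly6Chi and 40.2 FPKM in deficient Ly6Chi monocytes. The control subsets were furthest apart, and both deficient libraries lay between them. Its log2 ratio of Ly6Clo over Ly6Chi was -1.92 in control and -0.55 in deficient mice. Between genotypes the ratio was 0.76 in Ly6Clo and -0.61 in Ly6Chi monocytes, so the deficient library was the higher in one subset and the lower in the other. Neither genotype ratio reached 2-fold.

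Fcgr3 encodes FcgammaRIII, the low-affinity activating receptor, and was the most even of the IgG receptors. It measured 669.9 FPKM in control Ly6Clo, 635.4 FPKM in deficient Ly6Clo, 1029 FPKM in control Ly6Chi and 905.7 FPKM in deficient Ly6Chi monocytes. Both Ly6Chi libraries were above both Ly6Clo libraries, the opposite order to that of Fcgr4. The log2 ratio of Ly6Clo over Ly6Chi was -0.62 in control and -0.51 in deficient mice, and that of deficient over control was -0.08 in Ly6Clo and -0.18 in Ly6Chi monocytes.

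Fcgr2b encodes CD32b, the inhibitory receptor. Its level was 207.1 FPKM in control Ly6Clo, 372.1 FPKM in deficient Ly6Clo, 382.4 FPKM in control Ly6Chi and 333.2 FPKM in deficient Ly6Chi monocytes. The control Ly6Clo library stood below the other 3, which lay close to each other. Deficient over control was 0.84 on the log2 scale in Ly6Clo monocytes, a fold of 1.79, and -0.20 in Ly6Chi monocytes. Ly6Clo over Ly6Chi was -0.88 in control and 0.16 in deficient mice, and the latter was -0.05 after rescaling to TPM. B cells also express Fcgr2b. Of 7 B cell markers, Pax5 was at 0 in both Ly6Clo libraries, and the summed level of the list was 68.1 FPKM in control and 102.2 FPKM in deficient Ly6Clo monocytes, 26.2 FPKM in control and 47.2 FPKM in deficient Ly6Chi monocytes. Most of each sum was Cd79b, a chain of the B cell receptor, with 41.9 FPKM in control and 100.2 FPKM in deficient Ly6Clo monocytes. Its partner Cd79a was at 9.02 FPKM in control and 1.13 FPKM in deficient Ly6Clo monocytes, and Ms4a1, the B cell antigen CD20, at 3.27 FPKM and 0.0603 FPKM, so these 2 markers were lower, and Cd79b and the sum higher, where Fcgr2b was higher in Ly6Clo monocytes. The part of B cell RNA in the Fcgr2b values was not tested.

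**Figure D1:**
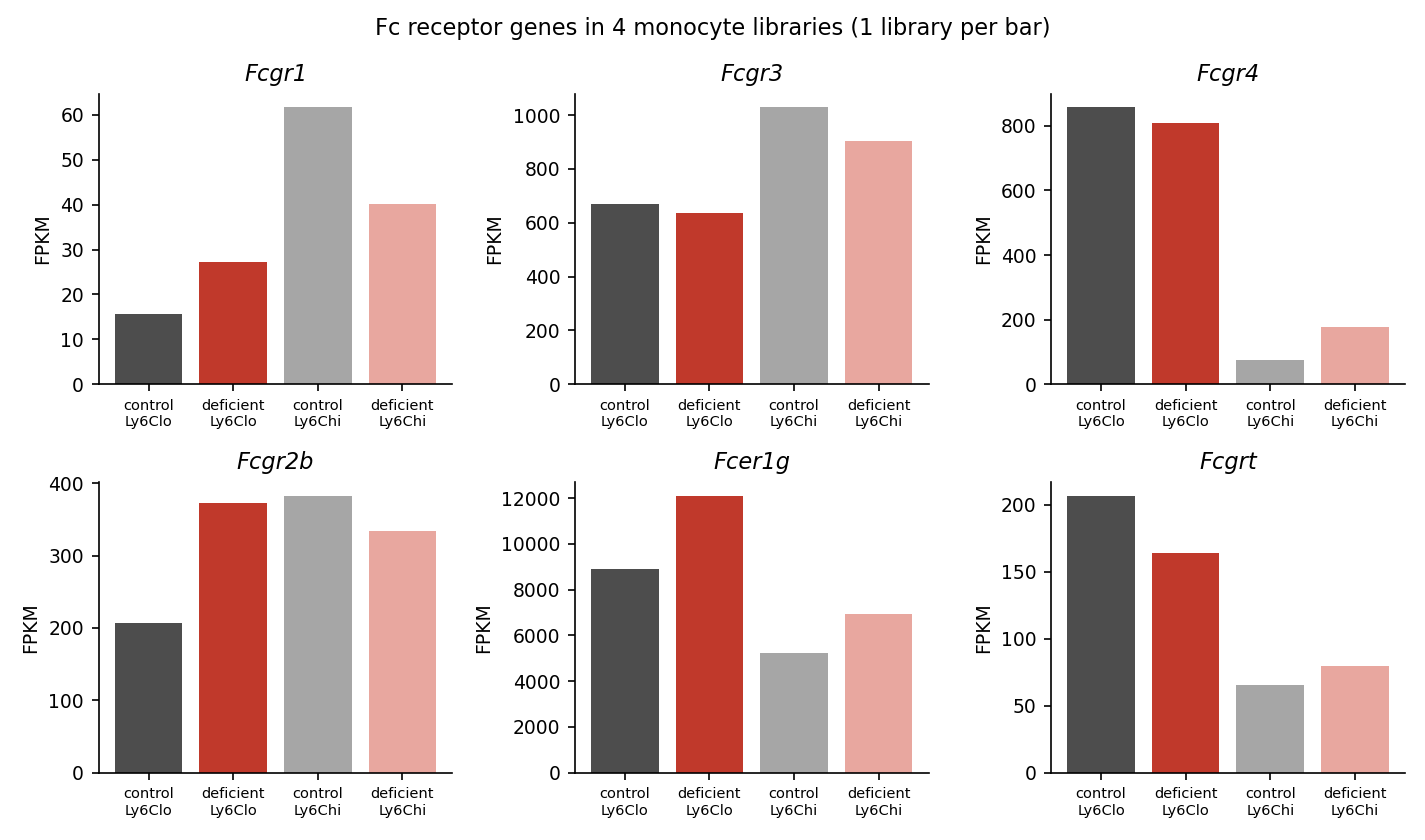
FPKM of the 6 genes in the 4 libraries, 1 panel per gene with its own vertical axis from 0 and 1 bar per library (grey, control; red, RBP-J-deficient; dark, Ly6Clo; light, Ly6Chi). Fcgr4 stands at 857.1 FPKM in the control Ly6Clo and 73.6 FPKM in the control Ly6Chi library, and the 2 deficient bars of Fcgr1 lie between the 2 control bars.

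Fcer1g, the signalling chain, was by far the most abundant of the 6 transcripts. It measured 8889 FPKM in control Ly6Clo, 12099 FPKM in deficient Ly6Clo, 5250 FPKM in control Ly6Chi and 6944 FPKM in deficient Ly6Chi monocytes, and ranked between 6 and 14 among all genes of each library. Levels were higher in Ly6Clo than in Ly6Chi monocytes and higher in deficient than in control libraries. The log2 ratio of deficient over control was 0.44 in Ly6Clo and 0.40 in Ly6Chi monocytes, and that of Ly6Clo over Ly6Chi was 0.76 in control and 0.80 in deficient mice. The genotype ratio in Ly6Clo monocytes was sensitive to scaling, at 0.09 after rescaling without Actb.

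Fcgrt, the recycling receptor, was at 206.7 FPKM in control Ly6Clo, 164.3 FPKM in deficient Ly6Clo, 65.5 FPKM in control Ly6Chi and 79.8 FPKM in deficient Ly6Chi monocytes. As with Fcgr4, both Ly6Clo libraries were above both Ly6Chi libraries. The log2 ratio of Ly6Clo over Ly6Chi was 1.64 in control and 1.03 in deficient mice. Deficient over control was -0.33 in Ly6Clo and 0.28 in Ly6Chi monocytes, and the first of these was 0.03 once its trend with transcript GC content was subtracted. B2m, the light chain that pairs with FcRn, was at 12663 FPKM and 10881 FPKM in control and deficient Ly6Clo monocytes and at 8013 FPKM and 9559 FPKM in the Ly6Chi libraries, the same order of libraries within each subset as Fcgrt.

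Across the 6 genes, the comparison of genotypes in Ly6Clo monocytes gave no gene that differed by 2-fold or more, where 21.3% of the 9660 genes tested did (9.51% higher and 11.7% lower, or 5.55% and 18.5% after rescaling to TPM). A gene was tested where either library reached 1 FPKM. In Ly6Chi monocytes 1 of 6, Fcgr4, was at least 2-fold higher, where 2.76% of genes were at least 2-fold higher and 7.54% differed in either direction. None of the 6 was at least 2-fold lower there, beside 4.78% of genes. At 1.5-fold, 2 of 6 differed in Ly6Clo monocytes (Fcgr1 and Fcgr2b) beside 46.9% of genes, and 2 of 6 in Ly6Chi monocytes (Fcgr1 and Fcgr4) beside 25.9%. The median log2 ratio of the 6 genes was 0.18 in Ly6Clo and 0.05 in Ly6Chi monocytes, beside 0.04 and 0.01 over all genes tested. In each subset 3 of the 6 were higher at any fold and 3 lower, where 52.2% of genes were higher in Ly6Clo and 50.6% in Ly6Chi monocytes, so neither median describes a common direction.

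**Figure D2:**
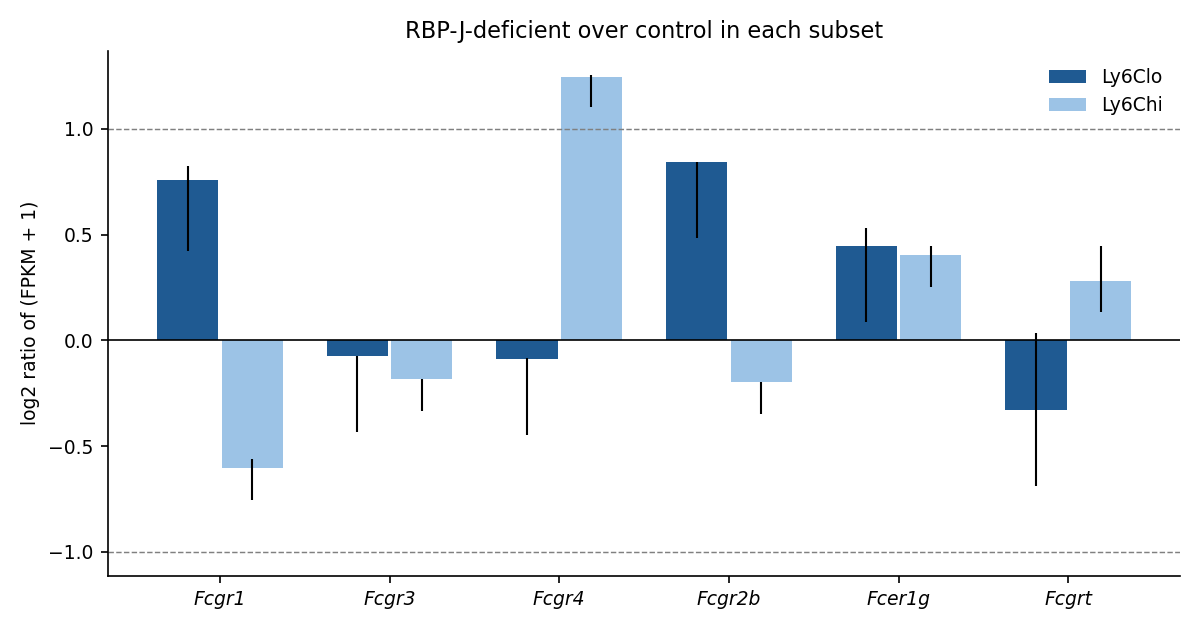
Genotype ratio of each gene (deficient over control, log2 of FPKM + 1) in Ly6Clo (dark) and Ly6Chi (light) monocytes, 1 library per group. Thin black lines span the values under 9 other ways of processing and are not replicate errors, dashed lines mark 2-fold, and only the Ly6Chi bar of Fcgr4 at 1.25 passes them.

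The subset comparison in control mice set 3 of the 6 genes at least 2-fold apart, where 13.5% of 9839 genes were. Fcgr4 and Fcgrt were higher in Ly6Clo monocytes (5.42% of genes were at least 2-fold higher), and Fcgr1 was lower (8.07%). In deficient mice Fcgr4 and Fcgrt remained past 2-fold, beside 20.0% of 9733 genes in either direction and 8.85% higher, and none was at least 2-fold lower (11.1%). Fcgrt was at the limit there, with 2.05-fold, and dropped under it with 5 of 9 other ways of processing. These were a pseudocount of 5, TPM with or without Actb, and median or upper-quartile scaling. The median log2 ratio of the 6 genes was 0.07 in control and 0.48 in deficient mice, beside 0.00 and 0.03 over all genes. At any fold 3 of the 6 were higher in Ly6Clo monocytes of control mice (49.9% of genes) and 4 of 6 of deficient mice (51.7%). At 1.5-fold all 6 differed between the control subsets (30.6% of genes) and 3 of 6 between the deficient subsets (43.3%).

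The difference between the subsets was smaller in deficient than in control mice for 5 of the 6 genes, the exception being Fcer1g. With TPM, with or without Actb, and with upper-quartile scaling the count was also 5, but the exception was Fcgr3, so the direction for these 2 genes turned with the scaling. Over all 10240 genes that reached 1 FPKM in any library this held for 41.9%. Among the 1327 genes that were at least 2-fold apart in control mice it held for 81.9%, and the 3 members past that limit, Fcgr4, Fcgr1 and Fcgrt, were all of this kind, so a smaller difference was common to most genes with a large one. In 4 of the 6 genes the genotype ratios had opposite signs in the 2 subsets (Fcgr1, Fcgr2b, Fcgr4 and Fcgrt), where 29.8% of the 10240 genes did. For Fcgrt the signs no longer differed after GC correction. The genotype and subset comparisons use the same 4 libraries, and the difference between the subsets' ratios was not tested.

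**Figure D3:**
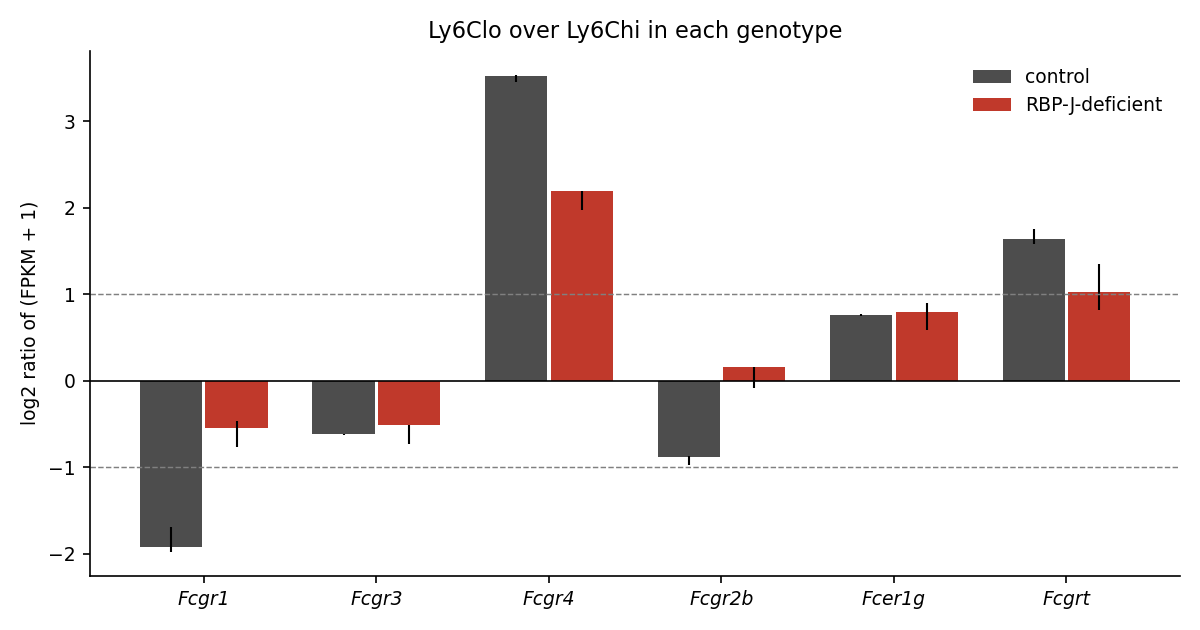
Subset ratio of each gene (Ly6Clo over Ly6Chi, log2 of FPKM + 1) in control (grey) and RBP-J-deficient (red) mice, with thin black lines spanning 9 other ways of processing and dashed lines at 2-fold. The bar of Fcgr4 shortens from 3.52 to 2.19 and that of Fcgr1 from -1.92 to -0.55, whereas the 2 bars of Fcer1g are alike at 0.76 and 0.80.

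Ratios between receptors of the same library do not depend on how libraries are scaled to each other. The 3 activating receptor genes together had 7.45 times the FPKM of Fcgr2b in control Ly6Clo monocytes, 3.95 times in deficient Ly6Clo, 3.04 times in control Ly6Chi and 3.37 times in deficient Ly6Chi monocytes. The control Ly6Clo library therefore stood apart from the other 3. Fcgr4 over Fcgr2b was 4.14 in control and 2.17 in deficient Ly6Clo monocytes, and 0.193 and 0.528 in the Ly6Chi libraries. Fcgr3 over Fcgr2b was 3.24 in control and 1.71 in deficient Ly6Clo monocytes, and 2.69 and 2.72 in the Ly6Chi libraries. The log2 difference between the genotypes in Ly6Clo monocytes was -0.93 for Fcgr4 over Fcgr2b and -0.92 for Fcgr3 over Fcgr2b, and -0.78 and -0.73 after subtraction of the trend with GC content. Fcgr4 over Fcgr3 was 1.28 and 1.27 in control and deficient Ly6Clo monocytes, and 0.0715 and 0.194 in the Ly6Chi libraries.

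As shares of the summed FPKM of the 4 IgG receptor genes, Fcgr4 held 49.0% in control Ly6Clo, 43.8% in deficient Ly6Clo, 4.76% in control Ly6Chi and 12.1% in deficient Ly6Chi monocytes. Fcgr3 held 38.3%, 34.5%, 66.5% and 62.2% in the same order of libraries, and Fcgr2b 11.8%, 20.2%, 24.7% and 22.9%. Fcgr1 held 0.893%, 1.47%, 3.99% and 2.76%. The make-up of the pool thus differed most between the subsets, with Fcgr4 leading in Ly6Clo and Fcgr3 in Ly6Chi monocytes of either genotype. The signalling chain exceeded the 3 activating receptors in every library, by 5.76 times in control Ly6Clo, 8.23 times in deficient Ly6Clo, 4.51 times in control Ly6Chi and 6.19 times in deficient Ly6Chi monocytes.

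**Figure D4:**
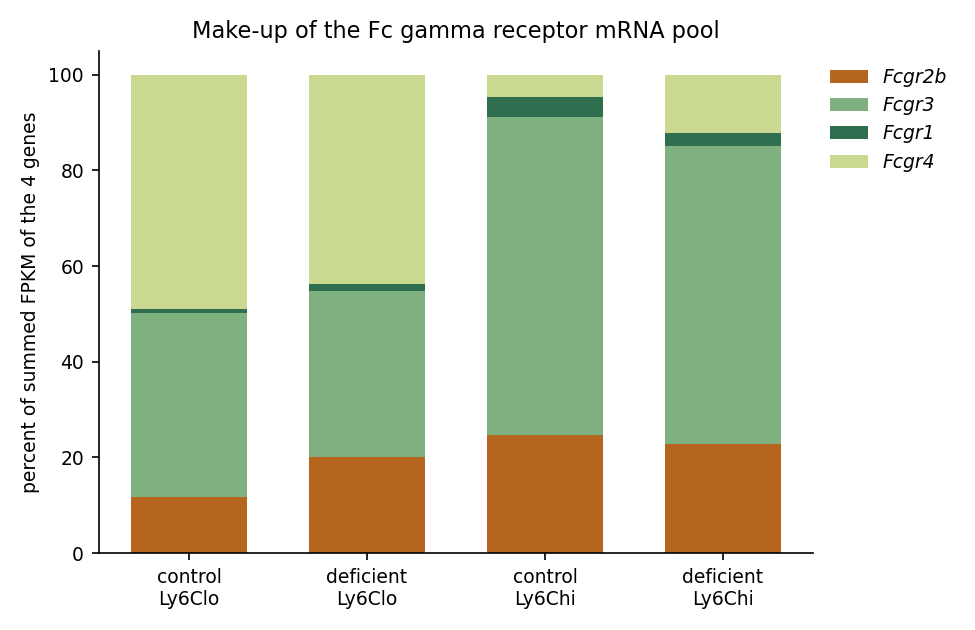
Share of each of 4 IgG receptor genes in their summed FPKM, in percent, with 1 stacked bar per library. Fcgr4 takes 49.0% and 43.8% of the 2 Ly6Clo bars against 4.76% and 12.1% of the 2 Ly6Chi bars, and Fcgr2b takes 11.8% of the control Ly6Clo bar and 20.2% of the deficient one.

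Profiles over the 4 libraries were compared by the Euclidean distance between centred log2 values of (FPKM + 1), as a description of 4 points. Among the 6 genes, Fcgr2b and Fcgr3 were closest, at 0.68, followed by Fcer1g and Fcgrt at 0.79, and Fcgr1 and Fcgr4 were furthest apart, at 4.34. Of 6405 genes with a mean of at least 5 FPKM, those nearest to Fcgr4 were Sh2d1b2 (0.15), which encodes an adaptor of SLAM family receptors, Lilra5 (0.35), a leukocyte immunoglobulin-like receptor, and Slc5a11 (0.39), a solute transporter. Lilra5 measured 150.7 FPKM and 144.8 FPKM in control and deficient Ly6Clo monocytes and 10.6 FPKM and 22.6 FPKM in the Ly6Chi libraries. Fcgr1 was nearest to Idh2 (0.21), Reep3 (0.26) and Prdx4 (0.29), Fcgr2b to Dstn (0.05), 1600002K03Rik (0.10) and Nfkbil1 (0.12), and Fcgr3 to Bscl2 (0.01), H1f0 (0.03) and Tor1aip2 (0.04). Fcer1g was nearest to Rab7l1 (0.06) and Prkcz (0.07), and Fcgrt to Tacc3 (0.16), Gm6377 (0.18) and Rap1gap2 (0.19). The 8 other genes of the table inside the chromosome 1 interval held 4 that reached 1 FPKM, 1700009P17Rik, Sdhc, Pcp4l1 and Tomm40l, and Sdhc, the only one above 10 FPKM, had the same order of libraries as Fcgr3 and not as Fcgr4, at 59.1 FPKM and 53.6 FPKM in control and deficient Ly6Clo and 81.4 FPKM and 64.8 FPKM in the Ly6Chi libraries.

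Downstream of the receptors, 21 genes of activating signalling were listed, among them the kinase Syk, the Src family kinases Lyn and Fgr, and the adaptor Lcp2. In Ly6Clo monocytes 0 of the 19 measured genes were 2-fold higher or lower between genotypes, beside 21.3% of all genes. The median log2 ratio of the list was -0.28. Syk was at 24.2 FPKM in control and 13.9 FPKM in deficient Ly6Clo monocytes, a log2 ratio of -0.76. In Ly6Chi monocytes 1 of 20 was at least 2-fold higher, beside 2.76% of all genes, the Src family kinase Fyn, with 3.46 FPKM in control and 12.3 FPKM in deficient cells (log2 ratio 1.57), and the median was -0.07. After rescaling to TPM, 5 of the 19 were at least 2-fold lower in deficient Ly6Clo monocytes, beside 18.5% of all genes.

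Inhibitory signalling was covered by 8 genes that act with or beside Fcgr2b. In Ly6Clo monocytes 3 of 7 measured genes were at least 2-fold lower in the deficient library and 0 higher, beside 11.7% and 9.51% of all genes. These were Dok3, an adaptor that restrains immunoreceptor signalling, with 174.1 FPKM in control and 32.9 FPKM in deficient cells (log2 ratio -2.37), the related Dok1, with 26.8 FPKM and 8.28 FPKM (-1.59), and Inpp5d, the lipid phosphatase SHIP1 recruited by CD32b, with 20.8 FPKM and 8.36 FPKM (-1.22). Ptpn6, the phosphatase SHP-1, was at 663.1 FPKM and 438.1 FPKM (-0.60), and Ptpn11 and Dok2 were higher, with log2 ratios of 0.82 and 0.49. The median of the list was -0.91, and -0.36 after subtraction of the trend with GC content, which left the count at 3. In Ly6Chi monocytes 0 of 8 were 2-fold apart, beside 7.54% of all genes, and the median was -0.57. Dok3 was at 173.7 FPKM and 93.7 FPKM there (-0.88), and Inpp5d at 23.7 FPKM and 11.4 FPKM (-0.996, just inside the limit). Thus Fcgr2b was higher, and 3 genes of the list lower, in the deficient Ly6Clo library.

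Of 13 genes of the actin and oxidase machinery of phagocytosis, 3 were at least 2-fold lower in deficient Ly6Clo monocytes and 0 higher, with a median of -0.42, where 11.7% of all genes were lower and 9.51% higher. The 3 were Dock2 (88.6 FPKM to 36.3 FPKM, log2 ratio -1.26) and Elmo1 (30.1 FPKM to 13.7 FPKM, -1.09), which act together in activating Rac, and the GTPase Rac1 itself (226.6 FPKM to 111.4 FPKM, -1.02). Genes of the oxidase went the other way without reaching 2-fold, with Cybb at 871.9 FPKM in control and 1382 FPKM in deficient Ly6Clo monocytes (0.66) and Ncf4 at 526.2 FPKM and 992.9 FPKM (0.91). In Ly6Chi monocytes 0 of 13 were 2-fold apart, beside 7.54% of all genes, and the median was -0.04. After rescaling to TPM the count of lower genes was 6 in Ly6Clo and 2 in Ly6Chi monocytes, where 18.5% and 7.13% of all genes were lower.

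Fcer1g also serves other receptors. Of 7 genes for receptors that pair with it, 6 were measured, and 5 of these were at least 2-fold higher in deficient Ly6Clo monocytes, with a median log2 ratio of 1.69, where 9.51% of all genes were at least 2-fold higher. Clec4d (MCL), a receptor of mycobacterial glycolipids, was at 9.55 FPKM in control and 67.6 FPKM in deficient cells (log2 ratio 2.70). Clec4b1, another C-type lectin of myeloid cells, was at 63.0 FPKM and 412.2 FPKM (2.69). Clec4e (Mincle) was at 92.9 FPKM and 312.7 FPKM (1.74), and Clec4n (Dectin-2) at 30.5 FPKM and 63.9 FPKM (1.04). The fifth gene, Tarm1, was listed at 0 in control and at 2.13 FPKM in deficient cells. The other measured gene, Gp6, was at 2.03 FPKM and 1.84 FPKM (-0.09). Clec4d, Clec4b1, Clec4e and Clec4n are all C-type lectins, so the count does not describe the partners of Fcer1g as a class. In Ly6Chi monocytes 1 of 6 was at least 2-fold higher (2.76% of all genes), Clec4e with 41.2 FPKM and 83.8 FPKM (1.01), and the median was -0.06. With a TPM scale or GC correction, 4 of 6 were at least 2-fold higher in Ly6Clo monocytes, beside 5.55% and 8.41% of all genes. In Ly6Chi monocytes 0 were, beside 2.68% and 2.64%. Tyrobp, the other main adaptor of this kind, was at 4293 FPKM and 2195 FPKM in control and deficient Ly6Clo monocytes (-0.97) and at 4702 FPKM and 4281 FPKM in the Ly6Chi libraries (-0.14).

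**Figure D5:**
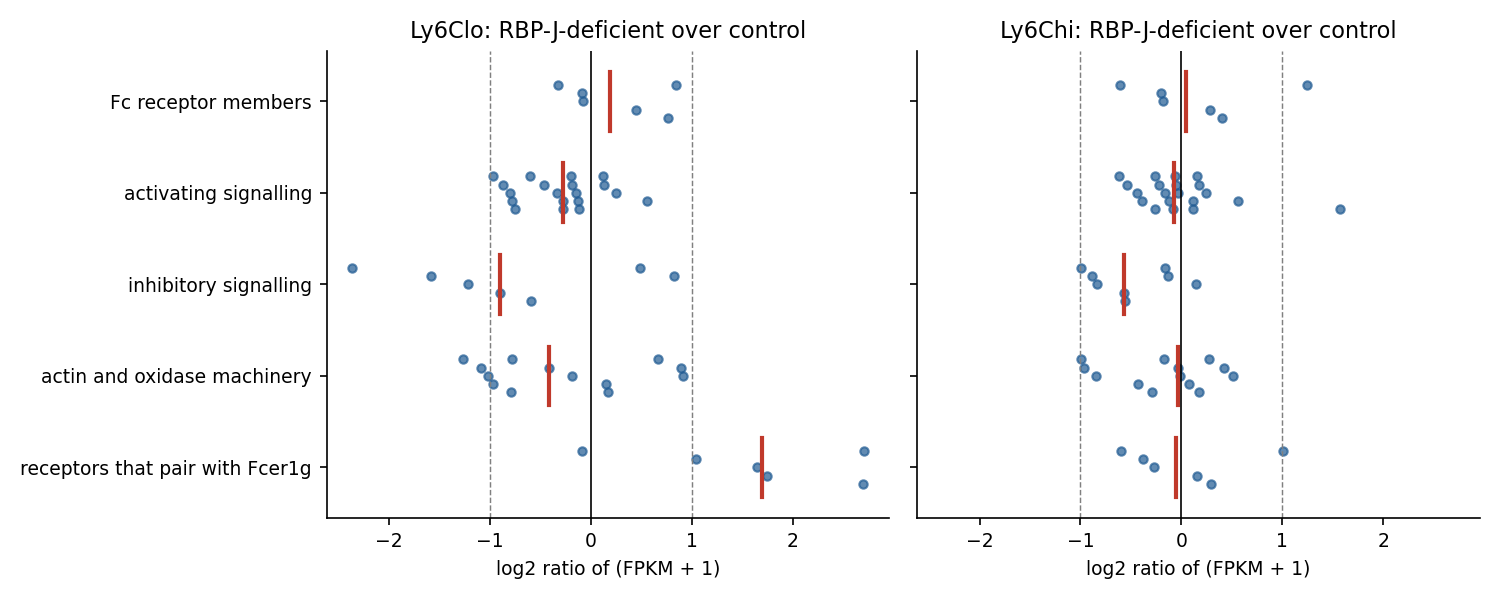
Genotype ratios (deficient over control, log2 of FPKM + 1) of each measured gene (points) of 5 lists in Ly6Clo (left) and Ly6Chi (right) monocytes, with list medians in red and dashed lines at 2-fold. In Ly6Clo monocytes the median of the receptors that pair with Fcer1g is 1.69, and that of the inhibitory signalling genes is -0.91 (1.45 and -0.36 after GC correction). Not every gene of either list lies on the side of its median.

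Among 12 other Fc and immunoglobulin receptors and partners, most were at or near 0, including Fcer1a and Ms4a2, the chains of the IgE receptor that use Fcer1g in mast cells and basophils. In Ly6Clo monocytes 1 of 6 measured genes was at least 2-fold higher and 0 lower, Trim21, a cytosolic antibody receptor, with 0.510 FPKM in control and 4.59 FPKM in deficient cells (log2 ratio 1.89), beside 9.51% of all genes higher. In Ly6Chi monocytes, where 2.76% of all genes were at least 2-fold higher and 4.78% lower, 3 of 5 were higher, Trim21 again (0.124 FPKM to 6.62 FPKM, 2.76), Fcrl1, an Fc receptor-like gene of B cells (6.65 FPKM to 14.5 FPKM, 1.01), and Fcrla (0.323 FPKM to 2.15 FPKM, 1.25), and Faim3, the IgM receptor gene, was lower (1.27 FPKM and listed at 0). The count of higher genes was 2 with TPM and with GC correction, and these levels are low. Markers of other blood cells were also summed. The platelet list summed to 125.5 FPKM and 124.1 FPKM in control and deficient Ly6Clo monocytes. In control and deficient Ly6Chi monocytes it summed to 350.3 FPKM and 293.3 FPKM, and its part in the values above was not tested. The NK cell list summed to at most 2.41 FPKM and the basophil and mast cell list to at most 0.953 FPKM. The erythroid list summed to 1582 FPKM in control Ly6Clo monocytes and to between 276.3 and 386.8 FPKM in the other 3 libraries, and its part in the values of control Ly6Clo monocytes was not tested. The neutrophil list, led by S100a8, which monocytes also express, summed to 239.2 FPKM and 169.9 FPKM in control and deficient Ly6Clo monocytes and to 1522 FPKM and 1194 FPKM in the Ly6Chi libraries. Neutrophils also express Fcgr3 and Fcgr4. S100a8 alone was at 197.2 and 126.1 FPKM in control and deficient Ly6Clo, and 1085 and 861.4 FPKM in control and deficient Ly6Chi monocytes. The neutrophil sum, mostly S100a8, had the same order of the 4 libraries as Fcgr3, and the opposite order between the subsets to Fcgr4. In deficient Ly6Clo monocytes, where the sum was lower, 2 of 5 measured genes were at least 2-fold higher and 0 lower (9.51% and 11.7% of all genes). In deficient Ly6Chi monocytes 1 of 6 was higher and 0 lower (2.76% and 4.78%). The part of neutrophil RNA in these values was not tested.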

How the data were processed

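Sorted blood monocytes were profiled by paired-end RNA-seq on an Illumina HiSeq2500, with 1 library per group. The authors deposited FPKM values per gene for each pair of libraries, and the submitters' processing notes name CASAVA 1.8, TopHat2 2.1.0, Cufflinks 2.2.1 and the mm10 build. The annotation release and the depth are not given in the sources used here. Each of the 6 genes had 1 row per pair, with the estimate status OK and the same value in all 6 pairs. The table also holds the authors' fold changes, p-values and q-values between single libraries, which were not used.

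Log2 ratios of (FPKM + 1) were computed for 4 comparisons over genes with at least 1 FPKM in either library, and 2-fold was used as the limit. No test, interval or leave-one-out was possible. Percentages of all genes past the limit are given as background. The pseudocount lowers the ratios of low genes. Alternatives were pseudocounts of 0.1 and 5, TPM, median and upper-quartile scaling, a filter of 1 FPKM in both libraries, the highest row per symbol in place of the sum, subtraction of a lowess trend with transcript GC content (GENCODE M21 transcripts), 1.5-fold, the study's limits of 5.7 and 0.2 on (FPKM + 1), and, added after seeing the data, TPM without Actb, list counts and shares of all genes with TPM and GC correction, and the count of smaller subset differences under each setting. From each list, genes at least 2-fold apart between genotypes and with at least 5 FPKM in either library are named, at most 4 a list and comparison. Marker lists of cells other than monocytes are given as sums, with counts past 2-fold for the neutrophil list. Syk, Ptpn6, Ptpn11, Dok2, Fcrla, Faim3, Cybb, Ncf4, Tarm1, Gp6, Tyrobp, B2m, Cd79a, Cd79b, Ms4a1, S100a8, Sdhc, Spn and Emr4 were added after their values were seen. So were the Ly6Clo genotype ratios of Treml4 and Pparg. The 3 genes nearest in profile to each member were sought. Some genes that these rules name are not reported here. The symbols Fcmr and Adgre4 were matched through RefSeq synonyms (Faim3, Emr4). The members and lists were chosen with earlier results of these data known. Scripts were tested on simulated data and run with Python 3.11.15, pandas 2.3.3, numpy 2.4.6, statsmodels 0.14.6 and matplotlib 3.10.9.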

Additional observations from a re-analysis of the deposited data

Results flagged for a closer look

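Fcgr1, Fcgr2b, Fcgr4 and Fcgrt are listed because deficient over control had opposite signs in Ly6Clo and Ly6Chi monocytes, with 1 library per group. No test of that difference was possible. The log2 ratio in Ly6Clo minus that in Ly6Chi monocytes was 1.37 for Fcgr1 (0.76 and -0.61), 1.04 for Fcgr2b (0.84 and -0.20), -1.33 for Fcgr4 (-0.09 and 1.25) and -0.61 for Fcgrt (-0.33 and 0.28). Only the Fcgr4 ratio in Ly6Chi monocytes passed 2-fold, and the Fcgrt signs no longer differed after GC correction.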

How the results depend on the processing

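Depth is unknown and each group is 1 library, so none of the differences has a replicate error. No paired analysis was possible because each group holds 1 library. Across genes, log2 ratios fell with transcript GC content (Spearman rho between -0.37 and -0.17 over 6086 genes, as a description), and the cause was not tested. No 2-fold call of a member changed sign. Uncalled ratios that changed sign were Fcgrt in the Ly6Clo genotype comparison (-0.33 to 0.03 with GC correction) and Fcgr2b between the deficient subsets (0.16 to -0.05 with TPM, with or without Actb, and to -0.08 with GC correction). At 1.5-fold the count of members was 2 between genotypes in Ly6Clo, 2 in Ly6Chi and 6 between the control subsets. With the study's fold limits it was 0 between genotypes in Ly6Chi, 1 between the control subsets and 0 between the deficient subsets. The share of all genes past these limits is not given, so these counts have no background beside them. The count of 2 between the deficient subsets became 1 with a pseudocount of 5, TPM (with or without Actb), median or upper-quartile scaling, as Fcgrt (1.03) came to lie between 0.82 and just under 1. Of 308 values under alternatives, 279 kept their direction and their side of the limit or stayed within 1.5 times a count. This share includes values that could not change. Each member had 1 row per pair and at least 15.6 FPKM in every library. The filter of 1 FPKM in both libraries and the highest row per symbol therefore left all member values as they were.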
